A study of Mus musculus with 34 samples.

Results

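The GIMAP genes described here are Gimap1, Gimap3, Gimap4, Gimap5, Gimap6, Gimap7, Gimap8 and Gimap9, 8 of the 19938 mouse genes that could be measured on 34 Affymetrix Mouse Gene 1.0 ST arrays. The members were chosen by symbol, as every gene of the family with a probeset (a group of probes read as a single value) listed under its name. Each gene had 1 such probeset, so the rule of taking the probeset with the highest mean decided nothing. The family was taken up with the high Gimap3 signal of 8093 cells at the end of lonafarnib treatment already known. Gimap3 in those arrays is therefore given as a description with no test.

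The study followed Bin-2 and 8093, pre-B acute lymphoblastic leukaemia lines from BCR/ABL transgenic mice, while they became tolerant of a drug. Each line comes from a single leukaemia, Bin-2 on a mixed genetic background and 8093 on inbred C57BL/6J. All groups, the starts included, grew on irradiated mouse embryonic fibroblasts in medium with recombinant IL-3, so fibroblast RNA and an IL-3 signal are common to them. Nilotinib, an inhibitor of the BCR/ABL tyrosine kinase, was given at 50 nM to Bin-2 cells and 20 nM to 8093 cells. Lonafarnib, a farnesyltransferase inhibitor, was given at 0.25 µM to Bin-2 cells and 1 µM to 8093 cells. Sampling covered the start (day 0), a midpoint of low viability and an end at which viability had returned and the cells grew in the drug. The midpoint was day 3, or day 4 for 8093 cells in lonafarnib. Viability at the midpoint was 5 to 10%, or 20% for 8093 cells in lonafarnib, and 90% at the end. The end was day 21 for nilotinib and day 30 for lonafarnib in Bin-2 cells, and day 20 for nilotinib and day 26 for lonafarnib in 8093 cells. Each of the 12 groups had 3 arrays from separate plates, except both ends of 8093, which had 2, and a midpoint sample could pool dishes. P-values therefore measure the spread between plates of a single line.

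GIMAP proteins, the GTPases of immunity-associated proteins, sit on intracellular membranes and are best known for their part in the development and survival of lymphocytes. Mouse Gimap1 is needed for mature B and T cells, and loss of Gimap5, which is found on lysosomes, causes lymphopenia in mice and rats. Gimap3 is a close paralog of Gimap5, with which it cooperates in keeping T cells in mice. Gimap4 has been linked to the pace of death of T cells, Gimap6 binds the autophagy protein GABARAPL2, human GIMAP7 stimulates GTP hydrolysis by its relative GIMAP2, and Gimap8 carries several GTP-binding domains.

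The 8 genes lie side by side on chromosome 6 between 48647186 and 48770851 (GRCm38.p6, the RefSeq build), in the order Gimap8, Gimap9, Gimap4, Gimap6, Gimap7, Gimap1, Gimap5 and Gimap3. This is a stretch of 124 kb with no other measured gene. RefSeq promoter windows, from 250 bases before to 50 after the annotated start, were found for all 8. Those of Gimap3, Gimap4 and Gimap7 are shown because these genes had the widest ranges of signal. Capitals mark every match to 5 motifs searched on both strands: GGAAGT for ETS factors, TGTGGT for RUNX factors, TGTTTAC for FOXO factors, TTCNNNGAA for STAT factors and CAGGTG for E2A. The sequences read 5′ to 3′ on the strand of each gene.
Gimap3 (chr6:48770802-48771101, minus strand): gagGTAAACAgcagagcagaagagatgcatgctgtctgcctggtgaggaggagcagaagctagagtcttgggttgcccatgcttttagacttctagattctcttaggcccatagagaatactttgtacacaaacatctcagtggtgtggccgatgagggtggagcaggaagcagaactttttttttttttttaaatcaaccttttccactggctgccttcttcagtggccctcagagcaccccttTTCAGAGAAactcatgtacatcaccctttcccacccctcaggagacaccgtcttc
Gimap4 (chr6:48684328-48684627, plus strand): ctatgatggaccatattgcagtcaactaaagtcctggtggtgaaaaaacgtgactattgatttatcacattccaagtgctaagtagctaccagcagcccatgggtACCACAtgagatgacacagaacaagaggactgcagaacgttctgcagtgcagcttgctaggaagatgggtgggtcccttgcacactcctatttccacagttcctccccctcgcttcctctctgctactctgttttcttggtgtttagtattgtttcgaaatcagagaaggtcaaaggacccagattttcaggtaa
Gimap7 (chr6:48718371-48718670, plus strand): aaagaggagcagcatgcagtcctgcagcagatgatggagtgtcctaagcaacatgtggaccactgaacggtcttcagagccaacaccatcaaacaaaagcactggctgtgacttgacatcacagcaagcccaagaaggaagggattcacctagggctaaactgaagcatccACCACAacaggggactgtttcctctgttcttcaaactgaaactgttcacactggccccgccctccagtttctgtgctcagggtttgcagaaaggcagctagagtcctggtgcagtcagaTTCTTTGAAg

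The Gimap3 window held a FOXO match at position -247 from the start and a STAT match at -5, with no ETS, RUNX or E2A match. Gimap4 held a RUNX match at -145 alone, and Gimap7 held a RUNX match at -79 and a STAT match at 41. Of all 32851 RefSeq promoter windows of this length, the FOXO letters were in 3.65%, the STAT letters in 8.3%, the RUNX letters in 16.8%, the ETS letters in 23.8% and the E2A letters in 20.2%. Among the 9 windows of the GIMAP genes (Gimap8 has 2), 1 held the FOXO letters, 4 the STAT letters, 3 the RUNX letters, 4 the ETS letters and 1 the E2A letters. A match is a run of letters and shows no binding.

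All values are log2 signals as the authors deposited them, running from 1.02 to 14.37 over all arrays, and a difference of 1 is a 2-fold change. The median signal of an array was between 5.3 and 5.65. Signals were more compressed at the 8093 nilotinib midpoint and the Bin-2 lonafarnib midpoint, where the interquartile range averaged 2.91 and 3.11, than in the other groups (3.43 to 3.65). The 2 arrays of 8093 cells at the end of nilotinib went against the pre-B label. Their mean over 13 pre-B markers was 5.48 to 5.58, against 8.74 to 8.99 at the start, and over 10 mast cell markers it was 11.37 to 11.41, against 3.81 to 4.16 at the start. Counts of called GIMAP genes were the same without these arrays in 18 of the 19 comparisons that do not use them, and at the 8093 nilotinib midpoint 6 in place of 5 were called (Gimap9 added, adjusted p = 0.0336). Called genes are those with a limma adjusted p below 0.05, in a fit over all 34 arrays with adjustment over all 19938 genes. The part of cross-reading between the paralogs Gimap3 and Gimap5 on these probesets was not tested.

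Before any drug, Bin-2 cells carried more GIMAP signal than 8093 cells. Of the 8 genes, 7 were called higher in Bin-2, where 20.1% of all genes were called and 9.47% of all genes were called higher in Bin-2, and the median difference was 0.98 over the GIMAP genes and 0 over all genes. Gimap4 averaged 11.29 ± 0.10 in Bin-2 cells and 9.19 ± 0.09 in 8093 cells (SD, n = 6 each), a difference of 2.10 ± 0.09 (SE, limma adjusted p = 4.39e-18). Gimap7 averaged 8.82 ± 0.18 in Bin-2 cells and 6.73 ± 0.09 in 8093 cells, a difference of 2.10 ± 0.11 (adjusted p = 2.95e-15). The lowest Bin-2 array lay above the highest 8093 array for both genes. Gimap3 differed by 2.03 ± 0.18 (adjusted p = 4.96e-10), with more spread in Bin-2 cells (5.64 to 7.16) than in 8093 cells (3.91 to 4.52). Gimap6 was higher by 1.03 ± 0.09, Gimap8 by 0.94 ± 0.09 and Gimap9 by 0.47 ± 0.11. Gimap1 showed no call at this precision, at 8.73 ± 0.15 in Bin-2 cells and 8.79 ± 0.12 in 8093 cells (difference -0.07, adjusted p = 0.724). The Gimap5 difference of 0.26 ± 0.09 (adjusted p = 0.0444) rested on single arrays: the ranges overlapped, and leaving out any of 8 start arrays ended the call (adjusted p up to 0.208, without Bin-2 lonafarnib start replicate 3). The call also ended after quantile normalization (0.23, adjusted p = 0.122), with a trended robust prior (0.0576) and when only the groups compared were fitted (0.0862). Between the starts of the nilotinib and lonafarnib courses of a line limma called none of the 8 genes and 0% of all genes, and 1 GIMAP gene in each line had an unadjusted p below 0.05.

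**Figure D1:**
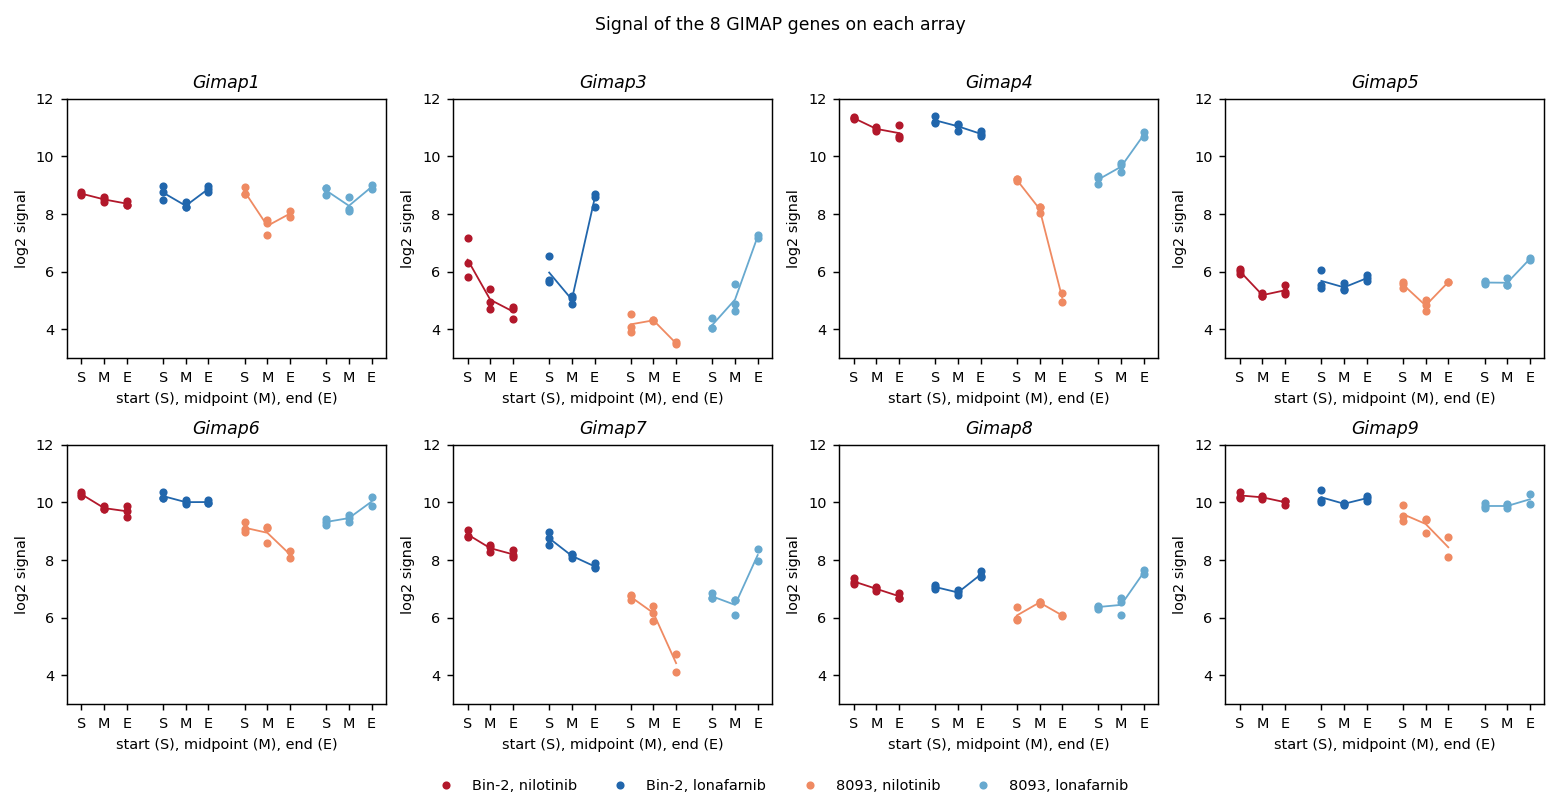
Log2 signal (vertical axes) of each GIMAP gene on every array, by line, drug and time. Each point is an array, and lines join the group means of 2 or 3 arrays over a course. At the end of lonafarnib Gimap3 stands at 8.26 to 8.70 in Bin-2 cells and 7.16 to 7.29 in 8093 cells, above all other groups' means, while Gimap4 and Gimap7 drop to 4.94 to 5.25 and 4.12 to 4.73 in 8093 cells at the end of nilotinib.

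Most of the family was lower in Bin-2 cells at the end of nilotinib. Here 6 of the 8 genes were called lower than at the start and none higher, where 8.89% of all genes were called, 3.94% lower, and the median change was -0.56 over the GIMAP genes and -0.03 over all genes. Gimap3 read 4.35, 4.72 and 4.79 at the end, against 5.80, 6.29 and 7.16 at the start. No end array reached a start array, and the change was -1.79 ± 0.26 (SE, n = 3 each, adjusted p = 1.12e-05). Gimap7 read 8.17, 8.09 and 8.34 at the end, against 8.85, 8.79 and 9.03 at the start, a change of -0.69 ± 0.16 (adjusted p = 0.00325). Gimap5 fell by 0.65 ± 0.13 on the log2 scale, Gimap6 by 0.59 ± 0.13, Gimap4 by 0.53 ± 0.12 and Gimap8 by 0.51 ± 0.12, with adjusted p between 0.000755 and 0.00539. The Gimap4 call ended when only the groups compared were fitted (adjusted p = 0.0569). Gimap1 (-0.35 ± 0.13) and Gimap9 (-0.24 ± 0.15) did not pass, although neither gene's groups overlapped.

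By the midpoint 3 of the 8 genes had already been called lower (3.47% of all genes were called, 1.6% lower). Gimap5 read 5.25, 5.17 and 5.14 at the midpoint, against 5.93, 6.02 and 6.10 at the start, a change of -0.83 ± 0.13 (adjusted p = 0.000128). Gimap3 read 5.41, 4.71 and 4.96 at the midpoint, a change of -1.39 ± 0.26 (adjusted p = 0.0011, and 0.072 with only the groups compared). The Gimap6 change of -0.48 ± 0.13 (adjusted p = 0.034) was lost without any of 5 of its 6 arrays (0.0632 to 0.142) and after quantile normalization (-0.43, 0.0521). Gimap4 was not called (-0.38 ± 0.12, limma adjusted p = 0.0814). It was called lower with a trended robust prior (0.0383) and without genes whose highest group mean was under 5 (0.0466). On these midpoint arrays 11 of 12 macrophage markers (median change 2.58) and 4 of 11 fibroblast markers were called higher and 1 of 13 pre-B markers lower, and their part in the GIMAP changes was not tested. From midpoint to end limma called none of the 8 genes (1.41% of all genes were called), and 1 had an unadjusted p below 0.05.

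The family split in Bin-2 cells treated with lonafarnib: at the end Gimap3 and Gimap8 were called higher than at the start, and Gimap4 and Gimap7 lower, where 8.07% of all genes were called. The median change was 0.03 over the GIMAP genes and 0.01 over all genes. Gimap3 read 5.72, 5.64 and 6.55 at the start, 5.15, 4.87 and 5.08 at the midpoint, and 8.70, 8.26 and 8.60 at the end. Its signal was thus below the start range at the midpoint and above it at the end. The end change of 2.55 ± 0.26 (SE, adjusted p = 3.75e-08) is a 5.86-fold rise. Gimap3 also fell by 0.94 ± 0.26 to the midpoint (adjusted p = 0.0135), which was lost without midpoint replicate 2 (-0.85, 0.0635) or start replicate 3 (-0.65, 0.123). From midpoint to end it rose by 3.49 ± 0.26 (adjusted p = 4.75e-11).

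Gimap7 moved the other way in the same arrays. It read 8.97, 8.52 and 8.78 at the start, 8.07, 8.16 and 8.21 at the midpoint, and 7.71, 7.89 and 7.75 at the end. The 3 ranges did not overlap, and the end change was -0.97 ± 0.16 (adjusted p = 6.67e-05). The smaller end changes were less sure. Gimap4 changed by -0.46 ± 0.12 (adjusted p = 0.0121), lost without end replicate 2 (0.067) or start replicate 3 (0.0863) and with only the groups compared (0.0524). Gimap8 changed by 0.43 ± 0.12 (adjusted p = 0.0249), lost without end replicate 3 (0.36, 0.141), start replicate 2 (0.103) or start replicate 3 (0.0606) and in 2 other settings (0.0542 and 0.0614). The count of called genes at the end was thus 2, and not 4, both without start replicate 3 and with only the groups compared. Gimap1, Gimap5, Gimap6 and Gimap9 changed by 0.13, 0.09, -0.21 and -0.03, none of them called.

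At the lonafarnib midpoint of Bin-2 cells 3 genes were called lower (16.5% of all genes were called, 12% lower): Gimap3, Gimap7 (-0.61 ± 0.16, adjusted p = 0.00809) and Gimap1 (-0.46 ± 0.13, adjusted p = 0.0189). These arrays are among the compressed ones, and on them 6 of 12 macrophage and 5 of 11 fibroblast markers were called higher and 5 of 13 pre-B markers lower. The part of these shifts was not tested. After quantile normalization, which removes that compression, the Gimap7 change was -0.45 (adjusted p = 0.103) and the Gimap1 change -0.30 (0.165), which left 1 call. Leaving out start replicate 1 also ended both (Gimap7 -0.51, 0.0503, and Gimap1 -0.35, 0.11), and the Gimap1 call was lost without any of 3 further arrays. From midpoint to end Gimap1, Gimap3 and Gimap8 were called higher (29.7% of all genes were called, 19.8% higher), Gimap1 by 0.59 and Gimap8 by 0.62. After quantile normalization Gimap4 (-0.39, adjusted p = 0.0116) and Gimap7 (-0.58, adjusted p = 0.0158) were called lower as well.

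In 8093 cells the end of nilotinib brought the lowest signals of Gimap3, Gimap4, Gimap6, Gimap7 and Gimap9 in the series. At that end 5 of the 8 genes were called lower than at the start and none higher, where 44.5% of all genes were called, 24.9% lower. The median change was -0.84 over the GIMAP genes and -0.15 over all genes. Gimap4 read 9.20, 9.14 and 9.21 at the start, 8.23, 8.05 and 8.25 at the midpoint, and 5.25 and 4.94 at the end. Each step was far larger than the spread within a group, and the end change was -4.08 ± 0.13 (SE, adjusted p = 1.51e-20), about 17.0-fold. Gimap7 read 6.80, 6.75 and 6.62 at the start, 6.18, 5.89 and 6.42 at the midpoint, and 4.12 and 4.73 at the end, an end change of -2.29 ± 0.18 (adjusted p = 3.12e-12). Gimap9 changed by -1.15 ± 0.17, Gimap6 by -0.93 ± 0.15 and Gimap1 by -0.76 ± 0.15, with adjusted p of at most 9.69e-05. End signals of Gimap4 and Gimap7 are below the median of the arrays, no detection calls were used, and a fold toward a low signal may be understated.

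The other 3 genes did not follow. Gimap5 read 5.65 and 5.63 at the end, against 5.59, 5.42 and 5.65 at the start, a change of 0.08 (adjusted p = 0.671). Gimap8 read 6.07 and 6.09 at the end, against 6.39, 5.91 and 5.94 at the start, a change of 0.00. Gimap3 read 3.48 and 3.55 at the end, against 3.91, 4.09 and 4.52 at the start. Both groups were below the median of the arrays, so a fall may be understated. Those groups did not overlap, but the change of -0.66 ± 0.29 was not called (adjusted p = 0.0665) and passed without start replicate 1 (-0.79, 0.0449) or with only the groups compared (0.026). In the same arrays 12 of 13 pre-B markers were called lower, with a median change of -3.96, and 10 of 10 mast cell and 11 of 12 macrophage markers higher. The part of these shifts in the GIMAP changes was not tested. In bulk RNA fewer cells of a type and less RNA per cell cannot be told apart.

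At the 8093 nilotinib midpoint 4 genes were called lower and 1 higher, where 50.1% of all genes were called. Gimap1 read 7.70, 7.27 and 7.80 at the midpoint, against 8.93, 8.68 and 8.71 at the start, a change of -1.19 ± 0.13 (adjusted p = 1.65e-08). Gimap4 changed by -1.01 ± 0.12, Gimap5 by -0.72 ± 0.13 and Gimap7 by -0.56 ± 0.16, while Gimap8 rose by 0.45 ± 0.12 (adjusted p = 0.00313). These arrays are the most compressed, and mast cell markers (10 of 10), macrophage markers (10 of 12) and fibroblast markers (8 of 11) were called higher in them. The part of these shifts was not tested. From midpoint to end all 8 genes were called (54.5% of all genes were called), with Gimap1 (0.43) and Gimap5 (0.81) higher and the other 6 lower, from -0.45 for Gimap8 to -3.08 for Gimap4. The Gimap1 call was lost without end replicate 2 (0.32, 0.168) or midpoint replicate 2 (0.27, 0.137), and with only the groups compared (0.112), and its change was 0.01 after quantile normalization. The Gimap3 call (-0.80) was lost without either end array (0.0997 and 0.0733) and after quantile normalization (-0.44, 0.251), the Gimap8 call with only the groups compared (0.0522), and the Gimap9 call (-0.80) without end replicate 1 (-0.46, 0.0501).

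Lonafarnib was followed by higher signal of most of the family in 8093 cells. At the end 5 genes were called higher than at the start, besides Gimap3, and none lower, where 8.71% of all genes were called, 4.4% higher. The median change was 1.01 over the 8 genes, Gimap3 included, and -0.03 over all genes. Gimap3 read 4.04, 4.04 and 4.38 at the start, 5.58, 4.88 and 4.64 at the midpoint, and 7.29 and 7.16 at the end. It was 3.07 ± 0.29 higher at the end than at the start, with no overlap between the 3 times, and this is the value that brought the family in.

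Gimap4 read 9.32, 9.24 and 9.04 at the start, 9.77, 9.46 and 9.70 at the midpoint, and 10.83 and 10.67 at the end. It climbed at both steps without overlap, and the end change was 1.56 ± 0.13 (SE, adjusted p = 3.73e-09), a 2.94-fold rise. Gimap7 read 8.38 and 7.97 at the end, against 6.86, 6.67 and 6.69 at the start, a change of 1.44 ± 0.18 (adjusted p = 1.43e-06). Gimap8 read 7.64 and 7.51 at the end, against 6.32, 6.42 and 6.38 at the start, a change of 1.20 ± 0.14 (adjusted p = 4.72e-07). For both genes every end array was above every start array. Gimap5 rose by 0.82 ± 0.14 (adjusted p = 0.000307) and Gimap6 by 0.71 ± 0.15 (adjusted p = 0.00175). The Gimap6 call was lost without end replicate 1 (0.54, 0.0808). Gimap1 (0.13, adjusted p = 0.702) and Gimap9 (0.23, adjusted p = 0.495) were not called.

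At the 8093 lonafarnib midpoint 3 genes were called (10.8% of all genes were called): Gimap3 (0.88 ± 0.26, adjusted p = 0.0251) and Gimap4 (0.44 ± 0.12, adjusted p = 0.0148) higher, and Gimap1 (-0.53 ± 0.13, adjusted p = 0.00969) lower. On these midpoint arrays 8 of 10 mast cell and 6 of 12 macrophage markers were called higher, and their part was not tested. Each GIMAP call was lost without any of 3 single arrays. Gimap3 was at 0.61 (0.186) without midpoint replicate 1 and 0.83 without start replicate 1 or 2 (0.101 and 0.0838), and its call was also lost after quantile normalization (0.79, 0.0507). Gimap4 was at 0.38 without midpoint replicate 1 (0.0788), 0.41 without midpoint replicate 3 (0.0699) and 0.36 without start replicate 3 (0.10). Gimap1 was at -0.47 without midpoint replicate 2 (0.0559), -0.43 without midpoint replicate 3 (0.0861) and -0.49 without start replicate 1 (0.0576). From midpoint to end 6 genes were called higher besides Gimap3 (6.26% of all genes were called, 3.95% higher), from Gimap6 (0.57) to Gimap7 (1.73), and Gimap9 (0.23) was not. Of these the Gimap1 (0.66) and Gimap6 calls were lost with only the groups compared (adjusted p 0.0705 and 0.072), and the Gimap6 call without midpoint replicate 2 (0.51, 0.0771). Without end replicate 1, which leaves 1 end array, Gimap1 was at 0.58 and Gimap6 at 0.40.

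**Figure D2:**
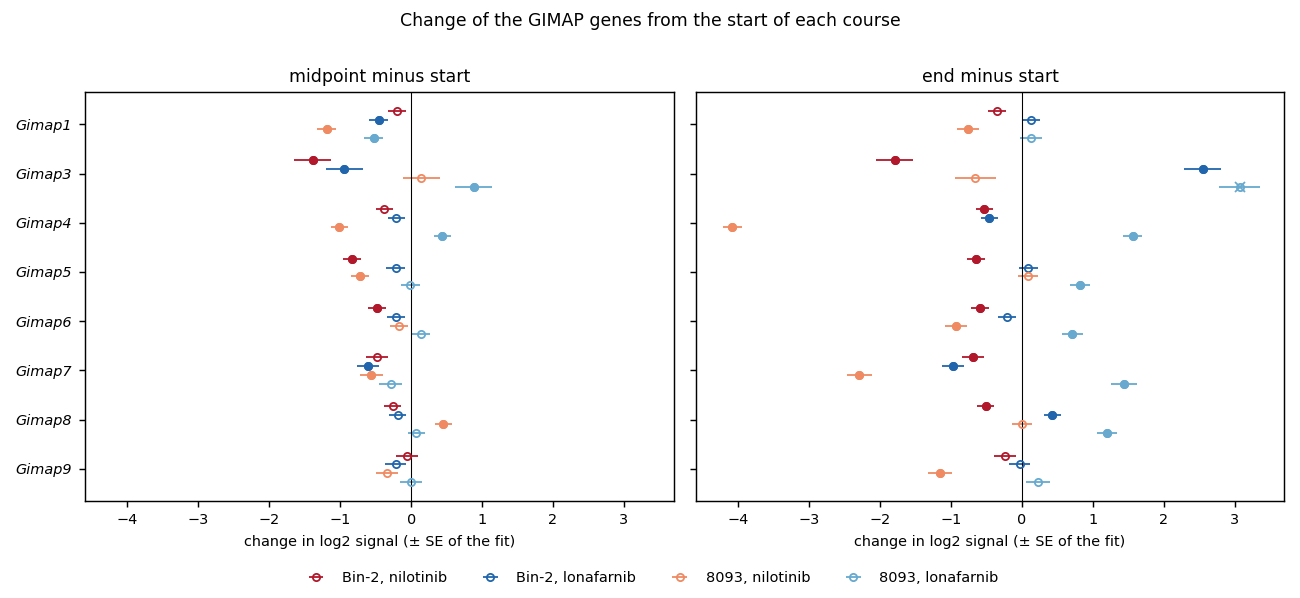
Log2 change from the start (horizontal axes) of each GIMAP gene at the midpoint and the end of each course, with the standard error of the fit. Filled points were called, open points were not, and the point with a cross is Gimap3 at the 8093 lonafarnib end, given with no test. At the end of nilotinib Gimap4 is at -4.08 in 8093 cells and -0.53 in Bin-2 cells, and at the end of lonafarnib at 1.56 in 8093 cells and -0.46 in Bin-2 cells.

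Nilotinib and lonafarnib were compared within a line by testing the difference between their changes from the start. The days were equal only at the Bin-2 midpoint (day 3). At the 8093 midpoint viability was 5 to 10% with nilotinib and 20% with lonafarnib. In Bin-2 cells at the end 3 genes differed (9.51% of all genes were called, 4.86% lower), all lower with nilotinib. Gimap3 changed by -1.79 with nilotinib and 2.55 with lonafarnib, a difference of -4.35 ± 0.37 (SE, adjusted p = 1.43e-09). Gimap8 (-0.94 ± 0.17) and Gimap5 (-0.74 ± 0.18) differed in the same direction. At the Bin-2 midpoint limma called none of the 8 (1.48% of all genes were called). In 8093 cells at the end all 7 genes tested differed (33.2% of all genes were called, 17.4% lower), all lower with nilotinib. Gimap4 changed by -4.08 with nilotinib and 1.56 with lonafarnib, a difference of -5.64 ± 0.19, and Gimap7 by -2.29 with nilotinib and 1.44 with lonafarnib, a difference of -3.73 ± 0.25. Gimap3, given with no test, was -0.66 with nilotinib and 3.07 with lonafarnib. At the 8093 midpoint Gimap4 (-1.45), Gimap5 (-0.72) and Gimap1 (-0.66) differed (26.8% of all genes were called, 17.6% lower). After quantile normalization the Gimap1 difference was -0.39 (adjusted p = 0.149), and Gimap8 was called the other way (0.54, adjusted p = 0.0251). Gimap8 was also called without 8093 lonafarnib midpoint replicate 3 (0.50, 0.0355) or nilotinib start replicate 1 (0.53, 0.0202).

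The lines also differed in their response to a drug, at unequal doses, and on equal days only at the nilotinib midpoint (day 3). At the lonafarnib midpoint viability was 5 to 10% in Bin-2 cells and 20% in 8093 cells. With lonafarnib at the end the change of 5 genes was lower in Bin-2 cells than in 8093 cells (4.61% of all genes were called, 2.49% lower). Gimap7 changed by -0.97 in Bin-2 cells and 1.44 in 8093 cells, a difference of -2.41 ± 0.24 (adjusted p = 3.61e-08). Gimap4 changed by -0.46 in Bin-2 cells and 1.56 in 8093 cells, a difference of -2.02 ± 0.18 (adjusted p = 7.61e-09). Gimap6 (-0.91), Gimap8 (-0.77) and Gimap5 (-0.73) were called too, but without 8093 lonafarnib end replicate 1 Gimap6 (-0.74, 0.0628), Gimap8 (-0.71, 0.0697) and Gimap5 (-0.70, 0.0931) were not, which left 2 calls. The Gimap5 call was also lost without any of 4 other arrays, and in the fit with the replicate number as a block (-0.72, adjusted p = 0.0509). Quantile normalization (-0.66, 0.0747) and a fit of only the groups compared (0.0821) ended it too. Gimap3 was 2.55 above its start in Bin-2 cells and 3.07 above it in 8093 cells, values that are set side by side with no test.

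With nilotinib at the end 6 genes differed between the lines (30.6% of all genes were called). Gimap4 (3.56), Gimap7 (1.60) and Gimap9 (0.91) fell more in 8093 cells, while Gimap3 (-1.13), Gimap5 (-0.74) and Gimap8 (-0.51) were lower in Bin-2 cells relative to their starts. In 8093 cells Gimap3 was below the median of the arrays at the nilotinib start (4.17), midpoint (4.31) and end (3.51), so a fall there may be understated. With only the groups compared the Gimap3 (adjusted p = 0.0525) and Gimap8 (0.0847) calls were lost, and Gimap8 also after quantile normalization (-0.40, 0.109). Without 8093 nilotinib end replicate 1 the differences of Gimap9 (0.56, 0.0741), Gimap3 (-1.17, 0.065) and Gimap8 (-0.52, 0.0764) were lost, which left 3 calls. The Gimap3 difference was lost without any of 5 arrays (adjusted p 0.065 to 0.114), and the Gimap8 difference without any of 7 arrays (0.0652 to 0.10) and with the replicate number as a block (-0.48, adjusted p = 0.0567). At the nilotinib midpoint 4 genes differed (26% of all genes were called): Gimap1 (0.99) and Gimap4 (0.63) upward, and Gimap3 (-1.53) and Gimap8 (-0.71) downward, Bin-2 minus 8093. After quantile normalization the Gimap4 difference was 0.30 (adjusted p = 0.189) and Gimap6 was called (-0.60, adjusted p = 0.0121, against -0.31, not called, as deposited). Gimap6 was also called without 8093 nilotinib midpoint replicate 2 (-0.49, 0.0363). At the lonafarnib midpoint Gimap3 (-1.82) and Gimap4 (-0.65) differed (4.2% of all genes were called, 3.36% lower). The Gimap4 difference was lost without any of 5 arrays (-0.57 to -0.62, adjusted p 0.0569 to 0.0902) and with only the groups compared (0.0621).

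Over the 12 groups each gene had its own order. Gimap3 was highest at the Bin-2 lonafarnib end (8.52), which did not overlap the next group, the 8093 lonafarnib end (7.22), and lowest at the 8093 nilotinib end (3.51), a span of 5.01. The 8093 lonafarnib end overlapped the Bin-2 nilotinib start (6.42), whose highest array was 7.16. Gimap4 ran from 11.33 at the Bin-2 nilotinib start to 5.10 at the 8093 nilotinib end, a span of 6.23. All 6 Bin-2 group means stood above the 8093 group means in Gimap4. The ranges at the Bin-2 nilotinib end (10.81) and the Bin-2 lonafarnib end (10.79) overlapped that of the 8093 lonafarnib end (10.75). Gimap7 spanned 4.46, from 8.89 at the Bin-2 nilotinib start to 4.43 at the 8093 nilotinib end. Its signal at the 8093 lonafarnib end (8.18) overlapped those of the Bin-2 nilotinib midpoint (8.42) and end (8.20) and the Bin-2 lonafarnib midpoint (8.15). The other spans were 2.09 for Gimap6, 1.80 for Gimap9, 1.62 for Gimap5, 1.50 for Gimap8 and 1.36 for Gimap1. Gimap5 and Gimap8 were highest at the 8093 lonafarnib end (6.45 and 7.58). That of Gimap5 overlapped no other group, and that of Gimap8 overlapped the Bin-2 lonafarnib end (7.50). Gimap1 was lowest at the 8093 nilotinib midpoint (7.59), which overlapped no other group.

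Common patterns appeared among the genes when their 12 group means were set side by side. Gimap4, Gimap6, Gimap7 and Gimap9 ran together over all 12 groups, with Pearson r of 0.98 for Gimap4 and Gimap9, 0.97 for Gimap4 and Gimap6 and 0.96 for Gimap4 and Gimap7. Without the 8093 nilotinib end group these were 0.92, 0.96 and 0.95 over 11 means. Within the 6 Bin-2 groups r was 0.49 for Gimap4 and Gimap9, 0.83 for Gimap4 and Gimap6, 0.90 for Gimap4 and Gimap7, 0.57 for Gimap6 and Gimap7, 0.54 for Gimap6 and Gimap9 and 0.57 for Gimap7 and Gimap9. Within the 6 8093 groups the r of these pairs lay between 0.92 and 0.98. Gimap3 ran closest to Gimap8, with an r of 0.90 over 12 means, 0.96 within the 6 Bin-2 groups and 0.96 within the 6 8093 groups. Gimap3 and Gimap7 had an r of -0.29 within the Bin-2 groups and 0.83 within the 8093 groups. At the Bin-2 lonafarnib end Gimap3 was higher and Gimap7 lower than at the start, and r without that group was not computed. Groups of a course share their start, and the lines differ throughout, so these r describe the means and carry no test.

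Across 7090 genes whose group means spanned at least 1 log2 unit, those most like Gimap3 were 9630013D21Rik (0.945), Vipr2 (0.937) and Spo11 (0.932). The closest to Gimap4 were Nrip1 (0.982), Lax1 (0.979) and Sigirr (0.977), and to Gimap7 Il12a (0.97), Calcrl (0.97) and Trmt9b (0.964). Asf1b (0.978), Alg3 (0.971) and Syce2 (0.97) were closest to Gimap1. Pcdhb20 (0.91), Pcdhb17 (0.907) and Gimap3 (0.905) were closest to Gimap8, and 1700048O20Rik (0.982), Gimap4 (0.976) and Lax1 (0.974) to Gimap9. For Gimap8 and Gimap9 a member of the family was thus among the closest 3. Without the 8093 nilotinib end these r lay between 0.886 for Gimap8 with Gimap3 and 0.984 for Gimap7 with Il12a.

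The 10 measured genes nearest to the cluster, 5 on each side, were tested in the same fits. At the end of lonafarnib in 8093 cells 2 were called higher than at the start and none lower, with a median change of -0.04. Gm5111, 57 kb before the cluster, rose by 0.94 ± 0.14 (SE, adjusted p = 4.08e-05), and Tmem176b, a membrane protein gene 63 kb after it, by 0.81 ± 0.14 (adjusted p = 0.000162). Tmem176b was the nearest measured gene after the cluster, and Gm5111 was not the nearest before the cluster. AI854703, 13 kb before the cluster, was not called (-0.50 ± 0.17, adjusted p = 0.068). At the end of lonafarnib in Bin-2 cells 3 were called higher: Tmem176b (1.85 ± 0.12), Tmem176a (1.17 ± 0.13) and Gm5111 (0.75 ± 0.13). At the end of nilotinib 2 of the 10 were called lower in Bin-2 cells, Gm5111 (-1.14 ± 0.13) and Repin1 (-0.48 ± 0.11). In 8093 cells 4 were called lower, Gm5111 (-3.56 ± 0.14), Repin1 (-2.28 ± 0.13), Tmem176b (-2.23 ± 0.14) and Tmem176a (-1.58 ± 0.14). Of all genes, 8.71% were called at the 8093 lonafarnib end (4.4% higher) and 8.07% at the Bin-2 lonafarnib end (4.66% higher). With nilotinib at the end 8.89% of all genes were called in Bin-2 cells (3.94% lower) and 44.5% in 8093 cells (24.9% lower). The 3 named neighbours beyond those of the naming rule were picked after their values were seen.

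**Figure D3:**
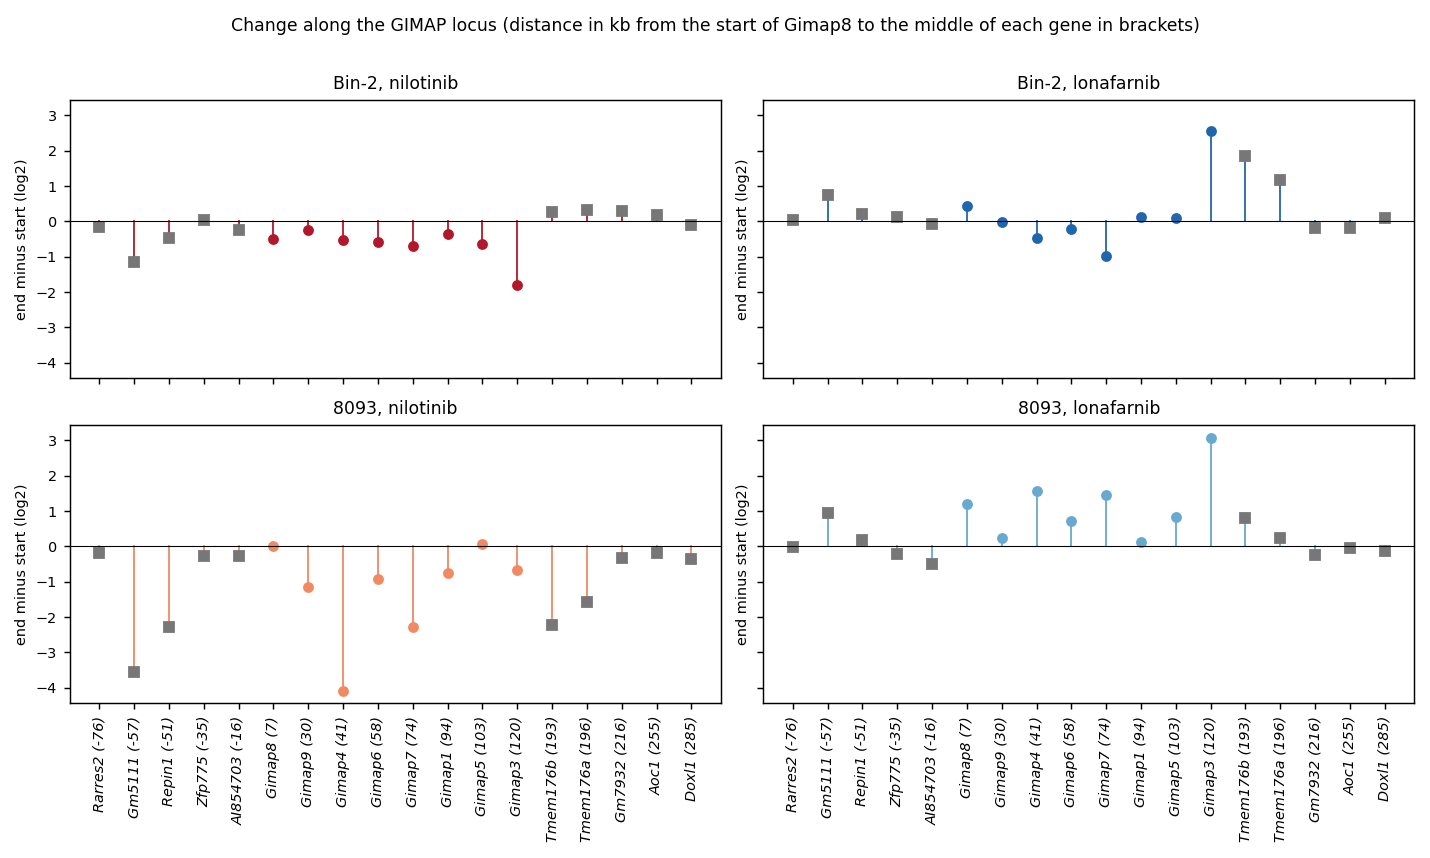
Log2 change from the start at the end of each course (vertical axes) for the 8 GIMAP genes and 5 measured neighbours on each side, in chromosomal order. A line runs from 0 to each value. At the 8093 lonafarnib end the cluster reaches 3.07 for Gimap3, and among the neighbours Gm5111 (0.94) and Tmem176b (0.81) were called.

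GIMAP proteins are expressed in T and NK cells, so markers of these were followed on the same arrays. Of 17 T and NK markers 16 were measured. Their mean was 4.44 to 4.91 on every array, and at the 8093 lonafarnib end 4.52 to 4.61, against 4.75 to 4.84 at the start, with 1 called higher and 3 lower. At the Bin-2 lonafarnib end 1 was called higher and 1 lower. Group means ran from 4.90 to 5.45 for Cd3e, 3.22 to 3.95 for Cd3d, 3.42 to 3.92 for Cd4 and 4.53 to 5.39 for Cd8a, which define T cells. Other listed genes varied more: group means ran from 5.12 to 9.95 for Lat (highest at the 8093 nilotinib end), 4.14 to 7.15 for Cd28 (highest at the Bin-2 nilotinib end), and 2.85 to 6.49 for Klrd1 and 4.22 to 6.29 for Cd2 (both highest at the 8093 lonafarnib start). Pre-B markers at the 8093 lonafarnib end averaged 8.89 to 8.97, against 8.95 to 9.01 at the start, with 3 called higher and 2 lower. Mast cell markers were called higher for 5 of 10 at that end, with a median change of 1.31. At the Bin-2 lonafarnib end 2 of the 10 were called lower and none higher. At the Bin-2 nilotinib end 9 of 10 mast cell and 12 of 12 macrophage markers were called higher, while 4 of 13 pre-B markers were called lower and 1 higher (array means 9.51 to 9.74, against 9.74 to 9.79 at the start). The part of these markers in the GIMAP changes was not tested. For these counts, 8.71% of all genes were called at the 8093 lonafarnib end, 8.07% at the Bin-2 lonafarnib end and 8.89% at the Bin-2 nilotinib end.

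**Figure D4:**
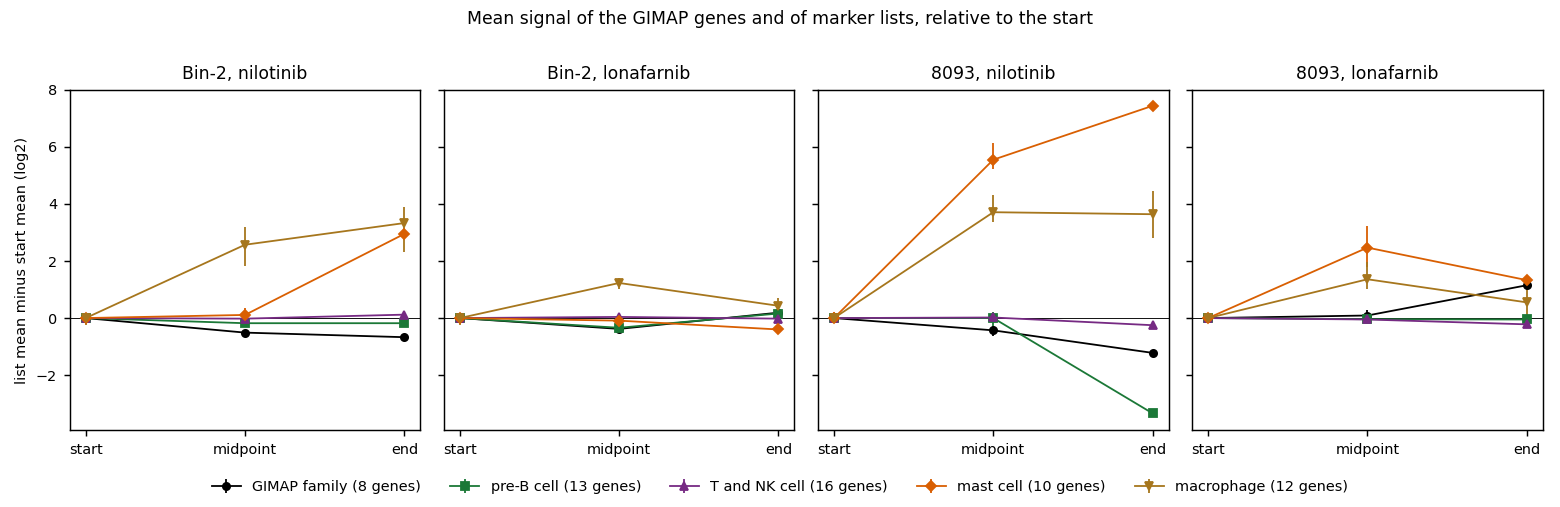
Mean log2 signal of the 8 GIMAP genes and of 4 marker lists, each minus its mean at the start of the course (vertical axes), by time. Points are group means and vertical bars the range over 2 or 3 arrays. Mast cell markers stand far above 0 and pre-B markers far below it at the 8093 nilotinib end, where the array means were 11.37 to 11.41 and 5.48 to 5.58, and the T and NK line stays near 0 in each course.

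At course ends, calls among genes that act beside GIMAP proteins were more often higher than lower, except for 8093 cells in lonafarnib. Of 13 listed partners, BCL2 family members, autophagy proteins and GSK3 kinases, 12 were measured. At the 8093 lonafarnib end 1 was called higher, Bcl2l1 (1.03 ± 0.20, adjusted p = 0.000989), which encodes the survival protein BCL-XL. Bcl2l11, which encodes the death-promoting BIM, was called lower (-0.56 ± 0.14, adjusted p = 0.00918), and the median change of the 12 was 0.01. The counts were 3 higher and 1 lower at the Bin-2 lonafarnib end, 2 higher at the Bin-2 nilotinib end, and 5 higher and 2 lower at the 8093 nilotinib end. The midpoint mean of the 12 was 7.67 for Bin-2 cells in lonafarnib (start 7.82) and 7.87 for 8093 cells in nilotinib (start 7.99). It was 7.89 for Bin-2 cells in nilotinib (start 7.83) and 8.1 for 8093 cells in lonafarnib (start 8.04). Of 16 measured genes of resting lymphocytes, such as the transcription factors Klf2 and Foxo1, none was called at the 8093 lonafarnib end, where 8.71% of all genes were called. The counts for these 16 were 3 higher and 1 lower at the Bin-2 lonafarnib end, 4 higher and 1 lower at the Bin-2 nilotinib end, and 7 higher and 8 lower at the 8093 nilotinib end. Of all genes, 8.07% were called at the Bin-2 lonafarnib end, 8.89% at the Bin-2 nilotinib end and 44.5% at the 8093 nilotinib end.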

How the data were processed

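The labels place 34 arrays in 12 groups by line, drug and time. The authors deposited a normalized log2 signal for each probeset and array. The log2 scale was read from the values. Partek is named in the submitters' processing notes. Its version, the normalization and the way probes were combined: not given in the sources used here. Lonafarnib doses appear as mM in one label and as µM in another, and µM was used.

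Of 35557 probesets, 21789 had 1 gene symbol, 1621 had several and 12147 were not listed. The highest-mean probeset of 999 genes with several was kept, which gave 19938 genes. All 8 GIMAP symbols matched RefSeq. limma 3.58.1 in R 4.3.3 fitted 12 group means (lmFit, eBayes, 22 residual and 6.6986 prior degrees of freedom) and 23 comparisons, with Benjamini-Hochberg adjustment over all genes. The number of arrays limits the precision. No array pair was identical. The fit was tested on simulated data.

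The members and lists were chosen with earlier results of these data known, so counts over them are descriptions. Named besides the members were the 3 genes most like each GIMAP gene that changed at least 2-fold, and up to 3 called genes in each direction from the partner, neighbour and resting lymphocyte lists at the 8093 lonafarnib end. Alternatives were each probeset tested alone, quantile normalization, a filter on genes under a signal of 5, a trended robust prior, only the groups compared, a replicate block and each array left out. Leaving out both 8093 nilotinib end arrays was chosen after seeing the data. Replicate numbers were not taken as pairs, since only 2 of 32 same-numbered pairs deviated together with a correlation over 0.1 (-0.18 to 0.16).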

Additional observations from a re-analysis of the deposited data

Results flagged for a closer look

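Differences between changes from the start that passed limma's test (adjusted p below 0.05 over all genes) are listed as log2 values, and none was weighed. Nilotinib minus lonafarnib was -4.35 for Gimap3, -0.74 for Gimap5 and -0.94 for Gimap8 in Bin-2 cells at the end. In 8093 cells nilotinib minus lonafarnib was -0.66 for Gimap1, -1.45 for Gimap4 and -0.72 for Gimap5 at the midpoint. At the 8093 end it was -0.89 for Gimap1, -5.64 for Gimap4, -0.74 for Gimap5, -1.63 for Gimap6, -3.73 for Gimap7, -1.20 for Gimap8 and -1.38 for Gimap9, besides -3.73 for Gimap3, which is a description because the family was taken up for that end. Those 8 rest on the nilotinib arrays in which pre-B markers were lost and mast cell markers gained.

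Bin-2 minus 8093 was 0.99 for Gimap1, -1.53 for Gimap3, 0.63 for Gimap4 and -0.71 for Gimap8 at the nilotinib midpoint. At the nilotinib end Bin-2 minus 8093 was -1.13 for Gimap3, 3.56 for Gimap4, -0.74 for Gimap5, 1.60 for Gimap7, -0.51 for Gimap8 and 0.91 for Gimap9. With lonafarnib the line difference was -1.82 for Gimap3 and -0.65 for Gimap4 at the midpoint. With lonafarnib at the end it was -2.02 for Gimap4, -0.73 for Gimap5, -0.91 for Gimap6, -2.41 for Gimap7 and -0.77 for Gimap8. Doses differ between the lines and agents in all of these, and days in all except the line difference at the nilotinib midpoint (day 3 in both). Viability also differs in the midpoint differences that use 8093 cells in lonafarnib (20%, against 5 to 10%).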

How the results depend on the processing

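No GIMAP change reversed direction where it was called. Of 1232 single-gene values under other settings 1192 kept their side of the threshold, 29 lost the call and 11 gained it, and of 1472 with an array left out 1395 kept it, 68 lost it and 9 gained it. Counts of called GIMAP genes moved by over 1.5 times in 4 cases. Quantile normalization gave 1 (3 as reported) at the Bin-2 lonafarnib midpoint and 5, of them 2 lower (3 as reported, none lower), from the Bin-2 lonafarnib midpoint to the end. With only the groups compared the count was 2 (4 as reported) at the Bin-2 lonafarnib end and 1 (2 as reported) between lines at the lonafarnib midpoint. The causes were not tested. With single arrays left out the counts ran from 1 to 3 at the Bin-2 lonafarnib midpoint, 2 to 4 at its end, 1 to 2 at the 8093 lonafarnib midpoint and 0 to 1 between drugs at the Bin-2 midpoint. Between lines they ran from 3 to 6 at the nilotinib end, 1 to 2 at the lonafarnib midpoint and 2 to 5 at the lonafarnib end. With the replicate number as a block, which leaves the 3 start comparisons without an estimate, no count moved past 1.5 times. The count was then 6 at the 8093 lonafarnib end with Gimap3 counted. Between lines it was 5 at the nilotinib end and 4 at the lonafarnib end. The counts and values of this section include Gimap3 in comparisons with the 8093 lonafarnib end, where it is otherwise given with no test. Among all genes, calls at the Bin-2 lonafarnib midpoint were 3287 as reported, 1891 after quantile normalization and 1391 with only the groups compared. With only the groups compared they were 96 (282 as reported) from the Bin-2 nilotinib midpoint to the end and 733 (1248 as reported) from the 8093 lonafarnib midpoint to the end. Between drugs at the Bin-2 midpoint they were 295 as reported, 463 without dim genes, 188 with the block and 449 without the 8093 nilotinib end. Between the 8093 starts they were 0 as reported and 7, 17, 2 and 28 without dim genes, with a trended prior, with only these groups and without the 8093 nilotinib end. Low signals have no detection calls, and groups of 2 or 3 arrays limit all values.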
